A study of Mus musculus with 9 samples.

Results

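The Schlafen genes are a mouse family whose members *Slfn1*, *Slfn2*, *Slfn3*, *Slfn4*, *Slfn5*, *Slfn8* and *Slfn9* were followed in brain tissue after an injection of lipopolysaccharide (LPS), a component of the bacterial cell wall that activates innate immune cells. The 7 genes were taken by symbol out of 17097 genes measured, through 9 probe sets that the platform annotation gives to a member symbol alone. *Slfn3* and *Slfn5* had 2 probe sets each, and the probe set standing for each gene was chosen by its mean log2 value over the 9 arrays, the higher one being kept. That mean serves below only to centre values and to choose the lower probe set as an alternative, and is not itself a result.

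Adult male C57Bl/6J mice, aged 10 to 12 weeks, received LPS or PBS into the striatum, and the brain on the injected side was taken after 4 d or 1 d of recovery. Groups were measured on 3 arrays each: LPS 4 d, LPS 1 d and PBS, the last collected at 4 d, with no PBS arrays at 1 d. Each array held RNA pooled from 3 mice, so that the spread between arrays is that between pools, and the labels name no transgene or mutant allele. Array medians lay between 4.32 and 4.37 on the log2 scale, and the genes of the striatal and neuronal marker list that were measured, 11 of 12, lay above background in every group with none called by limma with or without moderation (0 at an unadjusted p under 0.05 in LPS 4 d against PBS, 1 in LPS 1 d against PBS and 1 in LPS 4 d against LPS 1 d). Over all 17097 genes, 3027, 3048 and 2787 were at that level in the same contrasts. The tissue is bulk, so fewer cells of a type and less RNA per cell cannot be told apart in any value below.

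Schlafen proteins share an amino-terminal core and fall into short forms (*Slfn1* and *Slfn2*), intermediate forms (*Slfn3* and *Slfn4*) and long forms with an added helicase-like region (*Slfn5*, *Slfn8* and *Slfn9*). Many are induced by type I interferon, which acts through its receptor, kinases bound to it and transcription factors that bind interferon-stimulated response elements in promoters. Members have been studied mainly in thymocytes, T cells and cells of the monocyte and macrophage lineage, where they are linked to quiescence, growth arrest and differentiation.

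Of the 7 genes, 5 were higher in LPS 1 d than in PBS, namely *Slfn1*, *Slfn2*, *Slfn3*, *Slfn4* and *Slfn8*. In this and the other counts *Slfn3* was called by the probe set standing for it and not by its other one. To be called, a gene needed a fold change of at least 1.5 and, in limma, a p under 0.05 after Benjamini-Hochberg adjustment across the 45037 probe sets. By that rule 3.86% of all genes were higher in LPS 1 d than in PBS. Of the 7 genes, 1, *Slfn2*, was higher in LPS 4 d than in PBS, where 4.21% of all genes were. Set directly against LPS 1 d, the LPS 4 d arrays were lower for 4 of the 7, *Slfn1*, *Slfn2*, *Slfn3* and *Slfn4*, where 1.37% of all genes were. The median log2 change of the 7 genes was 0.43 in LPS 4 d against PBS, 2.15 in LPS 1 d against PBS and -1.58 in LPS 4 d against LPS 1 d, beside -0.02, -0.03 and 0.00 over all genes in the same contrasts. Across the 3 groups, 6 of the 7 differed by the moderated F-test, all but *Slfn9*, beside 7.67% of all genes.

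**Figure D1:**
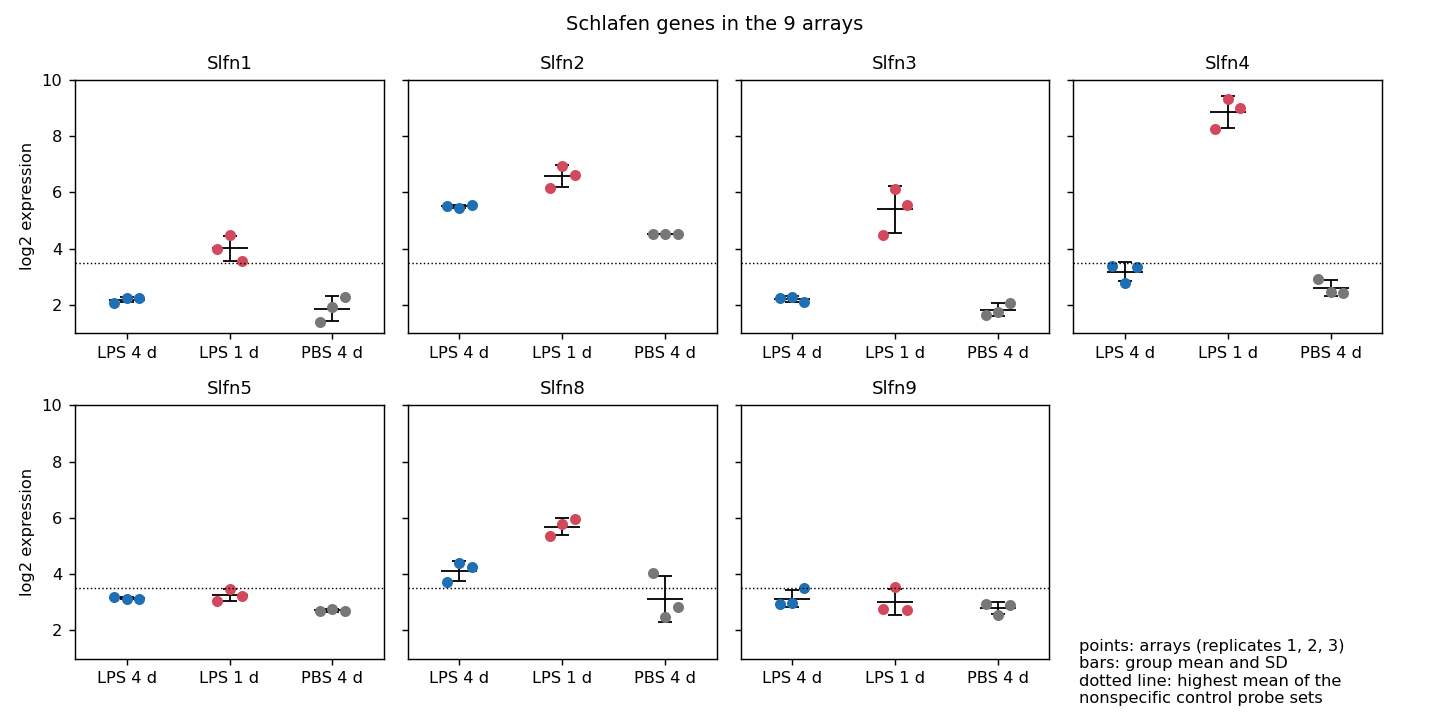
Log2 expression of the 7 Schlafen genes on each array (vertical axis, log2 units), with LPS 4 d left, LPS 1 d in the middle and PBS right in each panel. Points are arrays, bars are the group mean and SD, and the dotted line is the background level of 3.49. *Slfn4* at LPS 1 d stood between 8.24 and 9.33, above every LPS 4 d and PBS array.

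A background level was set at 3.49 log2 units, the highest mean over the 9 arrays among 23 nonspecific control probe sets. By this level 2 of the 7 genes were above background in LPS 4 d, 5 in LPS 1 d and 1, *Slfn2*, in PBS. Where PBS lay below that level, the fold change is also given as a bound, namely the mean of the brighter group over the background level, which for *Slfn1*, *Slfn3* and *Slfn4* holds in LPS 1 d against LPS 4 d as well.

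Both intermediate forms were higher in LPS 1 d by the probe set standing for each, though not by the other probe set of *Slfn3*. *Slfn4*, a gene of myeloid cells that is induced by interferon and by bacterial products in macrophages, measured 3.40, 2.79 and 3.36 log2 units in LPS 4 d, against 8.24, 9.33 and 8.99 in LPS 1 d and 2.91, 2.46 and 2.42 in PBS. Every LPS 1 d array was far above all others, while the LPS 4 d arrays overlapped those of PBS. In LPS 1 d against PBS the log2 change was 6.26 (SE 0.28, adjusted p = 6.62e-06), which is 76.7-fold and at least 41.2-fold over background. Between LPS 4 d and LPS 1 d it was -5.67 (SE 0.28, adjusted p = 0.00011), a level 51.0-fold lower. The difference in LPS 4 d against PBS, 0.59, did not pass the test (adjusted p = 0.344). On the linear scale the arrays averaged 9.23 ± 1.99 in LPS 4 d, 485 ± 172 in LPS 1 d and 6.11 ± 1.23 in PBS (SD, n = 3 each).

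*Slfn3*, studied in the differentiation of gut epithelium and in regulatory T cells, had 2.25, 2.29 and 2.09 log2 units in LPS 4 d, against 4.49, 6.13 and 5.56 in LPS 1 d and 1.66, 1.76 and 2.08 in PBS. The LPS 1 d arrays lay clear of both other groups. The log2 change was 3.56 in LPS 1 d against PBS (SE 0.34, adjusted p = 0.000312), 11.8-fold and at least 3.74-fold over background, and -3.18 in LPS 4 d against LPS 1 d (adjusted p = 0.00154), 9.07-fold lower. All LPS 4 d arrays were above all PBS arrays, although both groups lay below background and the log2 difference of 0.38 did not pass the test (adjusted p = 0.63).

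The other probe set of *Slfn3* did not follow this pattern. Its log2 values ran from 1.40 to 1.85 in LPS 4 d, from 1.33 to 1.72 in LPS 1 d and from 1.31 to 1.77 in PBS. The groups overlapped, all below background, and the log2 change in LPS 1 d against PBS was 0.02 (95% confidence interval -0.34 to 0.39, adjusted p = 0.968). The probe set that stands for *Slfn3* carries the suffix that the manufacturer gives to probe sets matching more than a single transcript, and *Slfn4* lies next to *Slfn3* on the chromosome, so the assignment of this signal to *Slfn3* is uncertain.

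**Figure D2:**
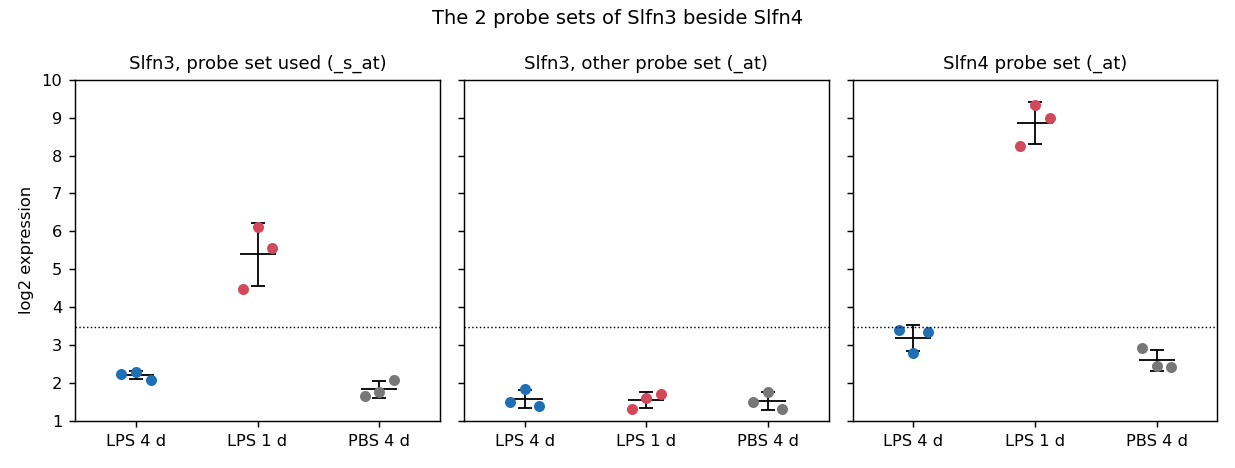
Log2 expression (vertical axis, log2 units) of the 2 probe sets of *Slfn3* on each array, beside that of *Slfn4* in the last panel. Each panel has LPS 4 d left, LPS 1 d in the middle and PBS right, and the dotted line at the background level of 3.49. The *Slfn3* probe set with the higher mean reached 6.13 in LPS 1 d, whereas its other probe set stayed at 1.85 or below on all 9 arrays.

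The short forms also rose in LPS 1 d. *Slfn2*, which keeps T cells and monocytes quiescent, had 5.50, 5.45 and 5.55 log2 units in LPS 4 d, against 6.16, 6.93 and 6.63 in LPS 1 d and 4.53, 4.52 and 4.54 in PBS. The 3 groups did not overlap, with LPS 1 d highest and PBS lowest. Its log2 change was 0.97 in LPS 4 d against PBS (SE 0.17, adjusted p = 0.0112), 2.05 in LPS 1 d against PBS (adjusted p = 0.000107), and -1.07 in LPS 4 d against LPS 1 d (adjusted p = 0.01), that is 1.97-fold higher, 4.13-fold higher and 2.10-fold lower. *Slfn2* was above background in all 3 groups, the only one of the 7 that was. Without the moderation of the spread between genes, the adjusted p was 0.0587 in LPS 4 d against PBS and 0.0687 in LPS 4 d against LPS 1 d, and the LPS 4 d against LPS 1 d contrast gave 0.0555 when fitted on the groups compared alone.

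*Slfn1*, which blocks the growth of thymocytes when overexpressed, had 2.07, 2.24 and 2.24 log2 units in LPS 4 d, against 3.99, 4.47 and 3.57 in LPS 1 d and 1.38, 1.92 and 2.27 in PBS. Again the LPS 1 d arrays were clear of the rest, and those of LPS 4 d overlapped with PBS. The log2 change was 2.15 in LPS 1 d against PBS (SE 0.25, adjusted p = 0.00123), 4.43-fold and at least 1.43-fold over background, and -1.82 in LPS 4 d against LPS 1 d (adjusted p = 0.00603). The difference in LPS 4 d against PBS was 0.32 (95% confidence interval -0.25 to 0.90, adjusted p = 0.58). The fall in LPS 4 d against LPS 1 d lost its call without moderation (adjusted p = 0.0601).

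Among the long forms, *Slfn8* rose and the other two were not called. *Slfn8* had 3.71, 4.38 and 4.25 log2 units in LPS 4 d, against 5.35, 5.77 and 5.96 in LPS 1 d and 4.04, 2.48 and 2.84 in PBS. All LPS 1 d arrays were above all others, and PBS replicate 1 overlapped the LPS 4 d arrays. The log2 change in LPS 1 d against PBS was 2.57 (SE 0.37, adjusted p = 0.00393), 5.94-fold and at least 4.60-fold over background. In LPS 4 d against PBS it was 0.99 (adjusted p = 0.221), and in LPS 4 d against LPS 1 d it was -1.58 (adjusted p = 0.0699). Both were called when PBS replicate 1 was left out, with a log2 change of 1.45 (adjusted p = 0.0218) in LPS 4 d against PBS and an adjusted p of 0.0109 in LPS 4 d against LPS 1 d. Those were the lowest values over the arrays left out. The highest adjusted p was 0.462 in LPS 4 d against PBS and 0.207 in LPS 4 d against LPS 1 d.

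*Slfn5*, an interferon-induced nuclear protein, measured 3.20, 3.12 and 3.12 log2 units in LPS 4 d, 3.06, 3.47 and 3.22 in LPS 1 d, and 2.69, 2.77 and 2.68 in PBS. Both LPS groups lay above every PBS array, but all 3 group means were below background. The log2 change of 0.53 in LPS 1 d against PBS (SE 0.11, adjusted p = 0.0248) was 1.45-fold, just under the fold threshold, and without LPS 1 d replicate 1 it was 0.63 (adjusted p = 0.0124) and passed. Over the arrays left out its adjusted p ranged from 0.0124 to 0.088, and it was 0.0581 without moderation, 0.0582 with an intensity trend, 0.07 on the groups compared alone and 0.0509 with the replicate block. In LPS 4 d against PBS it was 0.43 (adjusted p = 0.0632). The other probe set of *Slfn5* averaged 2.30 in LPS 4 d, 2.32 in LPS 1 d and 2.02 in PBS, and was not called in any contrast.

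*Slfn9* had 2.93, 2.97 and 3.49 log2 units in LPS 4 d, 2.75, 3.53 and 2.74 in LPS 1 d, and 2.93, 2.56 and 2.89 in PBS, with overlap among all groups and means below background. The log2 change was 0.34 in LPS 4 d against PBS (95% confidence interval -0.19 to 0.87) and 0.21 in LPS 1 d against PBS (-0.32 to 0.74). At this signal a change of *Slfn9* was not detectable, which does not show that there was none.

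**Figure D3:**
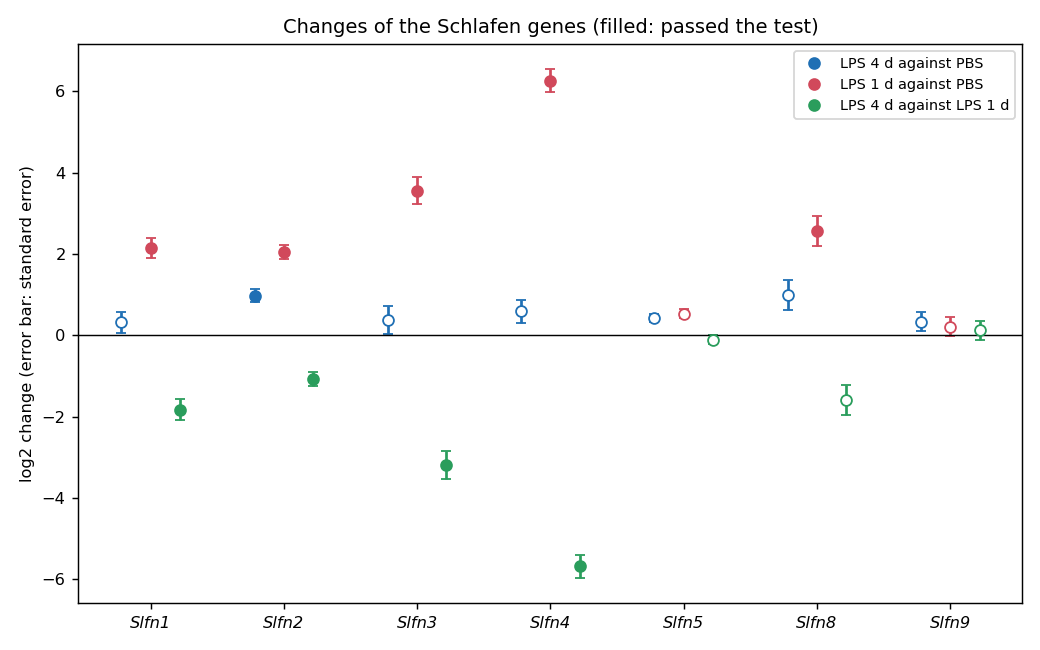
Log2 change of each Schlafen gene (log2 units) in the 3 contrasts, with bars for the standard error of the limma fit and filled points for changes that were called. *Slfn4* had the largest measured changes, 6.26 in LPS 1 d against PBS and -5.67 in LPS 4 d against LPS 1 d, and *Slfn9* the smallest in LPS 1 d against PBS, 0.21.

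In LPS 1 d, 6 of the 7 genes had every array above every PBS array, as 11.5% of all genes did. The same was true of 3 in LPS 4 d, beside 12% of all genes, and 5 of the 7 had every LPS 4 d array below every LPS 1 d array, beside 9.76%. The 5 genes called in LPS 1 d against PBS did not have the same order of arrays within LPS 1 d. Replicate 2 was the highest of the 3 for 4 of them and replicate 3 for *Slfn8*, while replicate 1 was the lowest for 4 and replicate 3 for *Slfn1*. Summed on the linear scale, the 7 genes gave 94.6, 97.6 and 105 in LPS 4 d, 468, 936 and 744 in LPS 1 d, and 66.9, 53.8 and 58.6 in PBS. Most of the LPS 1 d sum came from *Slfn4*, which averaged 485.

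The family lies in a run on chromosome 11, and the promoters of *Slfn8* and *Slfn9* were the most alike of the 21 pairs among the 7, with 248 identical bases, 82.7% of 300. The other 20 pairs shared 48% to 56.3%, and *Slfn3* and *Slfn4* shared 50.7%. The alignments allowed gaps and no unrelated promoters were aligned, so the shares of these 20 pairs do not show likeness within the family. Promoters were taken from 250 bases before to 50 after the start of the gene in RefSeq on GRCm38.p6, and all 7 genes matched by symbol. They were searched on both strands for the interferon-stimulated response element (GAAA, any 2 bases, GAAA), the gamma-activated site (TTC, any 3 bases, GAA) and the NF-kB motif, which 3.44%, 8.3% and 4.51% of 32851 mouse promoters hold. Below are *Slfn8* (chr11:83020761-83021060, minus strand) and *Slfn9* (chr11:82991781-82992080, minus strand), shown as the most alike pair, *Slfn5* (chr11:82951852-82952151, plus strand) as the third holder of a response element, and *Slfn4* (chr11:83174936-83175235, plus strand) as the gene with the largest measured change. Capitals mark motif matches, and sequences run from 5′ to 3′.
Slfn8: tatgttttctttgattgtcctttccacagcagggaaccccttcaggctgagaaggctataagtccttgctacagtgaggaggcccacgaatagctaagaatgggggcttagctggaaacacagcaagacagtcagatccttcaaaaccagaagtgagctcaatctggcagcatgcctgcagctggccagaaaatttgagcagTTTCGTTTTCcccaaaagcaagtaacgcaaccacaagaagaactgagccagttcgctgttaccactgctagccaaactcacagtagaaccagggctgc
Slfn9: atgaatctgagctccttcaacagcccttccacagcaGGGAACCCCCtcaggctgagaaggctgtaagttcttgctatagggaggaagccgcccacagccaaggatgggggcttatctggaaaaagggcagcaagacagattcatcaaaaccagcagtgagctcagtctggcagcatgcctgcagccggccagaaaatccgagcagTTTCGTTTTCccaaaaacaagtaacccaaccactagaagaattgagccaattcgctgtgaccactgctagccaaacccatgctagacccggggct
Slfn5: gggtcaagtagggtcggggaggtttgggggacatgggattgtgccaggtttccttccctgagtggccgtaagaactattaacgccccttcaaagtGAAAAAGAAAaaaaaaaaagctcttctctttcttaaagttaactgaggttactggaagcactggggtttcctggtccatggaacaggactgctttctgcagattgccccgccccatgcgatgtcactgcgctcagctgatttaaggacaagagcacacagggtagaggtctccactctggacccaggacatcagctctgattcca
Slfn4: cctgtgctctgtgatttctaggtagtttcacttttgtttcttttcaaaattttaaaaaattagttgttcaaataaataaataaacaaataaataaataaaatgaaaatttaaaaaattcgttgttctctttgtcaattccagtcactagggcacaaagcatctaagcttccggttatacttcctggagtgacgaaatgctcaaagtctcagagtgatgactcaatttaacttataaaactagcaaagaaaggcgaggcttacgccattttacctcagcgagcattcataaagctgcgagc

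The response element began 48 bases before the start of *Slfn8*, 45 before that of *Slfn9* and 155 before that of *Slfn5*, and the first 2 were the same 10 letters. *Slfn9* also held an NF-kB match 214 bases before its start, and *Slfn1* held one 43 bases before its start. *Slfn2*, *Slfn3* and *Slfn4* held no match to any of the 3 motifs in this window, and no member held a gamma-activated site. A match describes letters and is not a bound site. *Slfn8*, with the element, was called in LPS 1 d against PBS, whereas *Slfn9* and *Slfn5*, which also hold it, were not. The means of *Slfn9* and *Slfn5* were below background in all groups, and *Slfn5* missed the call on fold alone (1.45-fold, limma adjusted p = 0.0248). Whether the element goes with a change was not tested, nor was the difference in change between *Slfn8* and *Slfn9*.

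**Figure D4:**
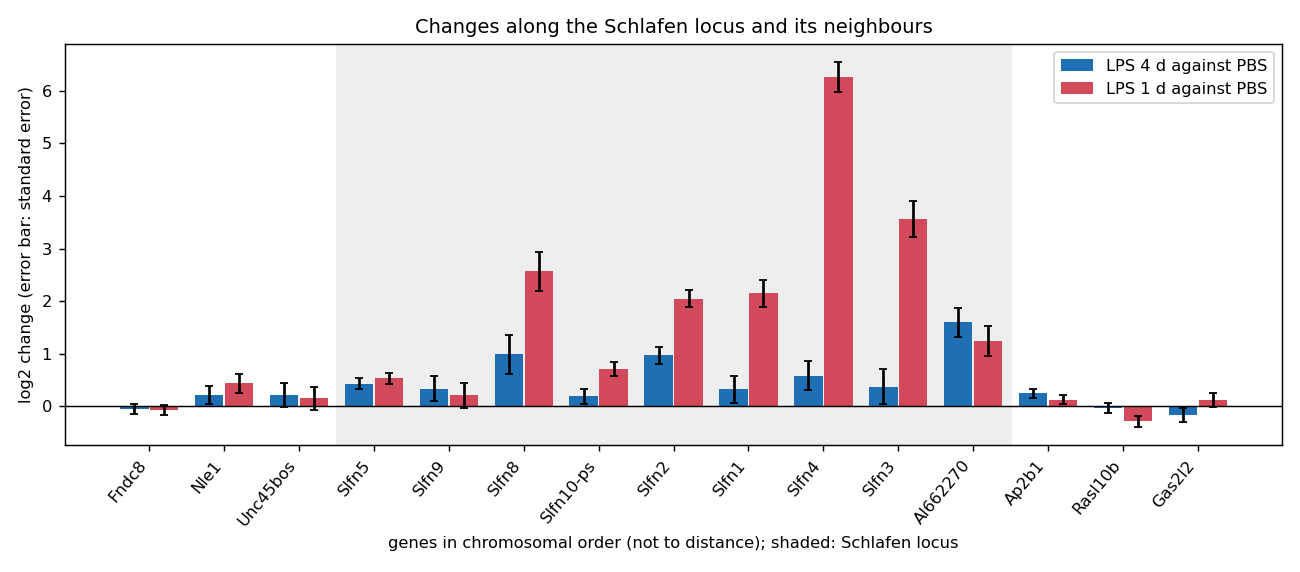
Log2 change (log2 units) of the Schlafen genes and their neighbours along chromosome 11, in RefSeq gene order and not to scale. The 6 flanking genes stayed between -0.28 and 0.44 in LPS 1 d against PBS, and none was called.

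Beside the 7 genes, those of the run with a probe set of their own were the pseudogene *Slfn10-ps* and the long noncoding RNA *AI662270*, and the others, *Slfn14* among them, were not analysed here. *Slfn10-ps* had 1.62, 1.72 and 1.62 log2 units in LPS 4 d, 1.94, 2.06 and 2.53 in LPS 1 d, and 1.51, 1.42 and 1.46 in PBS. Its log2 change of 0.71 in LPS 1 d against PBS passed the test (adjusted p = 0.0217), with all 3 groups below background. *AI662270* averaged 4.14 ± 0.53 in LPS 4 d, 3.78 ± 0.38 in LPS 1 d and 2.53 ± 0.27 in PBS (SD, n = 3 each), a log2 change of 1.60 in LPS 4 d against PBS (adjusted p = 0.0129) and 1.25 in LPS 1 d against PBS (adjusted p = 0.0436), and the arrays of LPS 4 d and LPS 1 d overlapped. The PBS mean of *AI662270* was below background. Its probe set carries the same suffix as that standing for *Slfn3*, given to probe sets matching more than a single transcript. *Fndc8*, *Nle1* and *Unc45bos* on one side and *Ap2b1*, *Rasl10b* and *Gas2l2* on the other were not called in any contrast by limma, with or without moderation, and 1 of the 6 was at an unadjusted p under 0.05 in LPS 4 d against PBS, 2 in LPS 1 d against PBS and 1 in LPS 4 d against LPS 1 d. Of all 17097 genes, 3027, 3048 and 2787 were at that level in the same contrasts.

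The interferon-stimulated genes were read beside the family, as a list of 37 genes of which 32 were measured. Of these, 15 were higher in LPS 4 d than in PBS, 29 were higher in LPS 1 d than in PBS, and 24 were lower in LPS 4 d than in LPS 1 d, with the list's median log2 change at 1.02, 2.45 and -1.41 in these 3 contrasts. *Cxcl10*, a chemokine, changed by 2.75 in LPS 4 d against PBS and by 6.83 in LPS 1 d against PBS, while the antiviral gene *Oasl2* changed by 1.93 in LPS 4 d against PBS and by 4.24 in LPS 1 d against PBS. By measured values *Slfn4* sat at the upper end of this list, since 1 of the 32 genes had a larger log2 change in LPS 1 d against PBS and 0 had a larger fall in LPS 4 d against LPS 1 d.

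**Figure D5:**
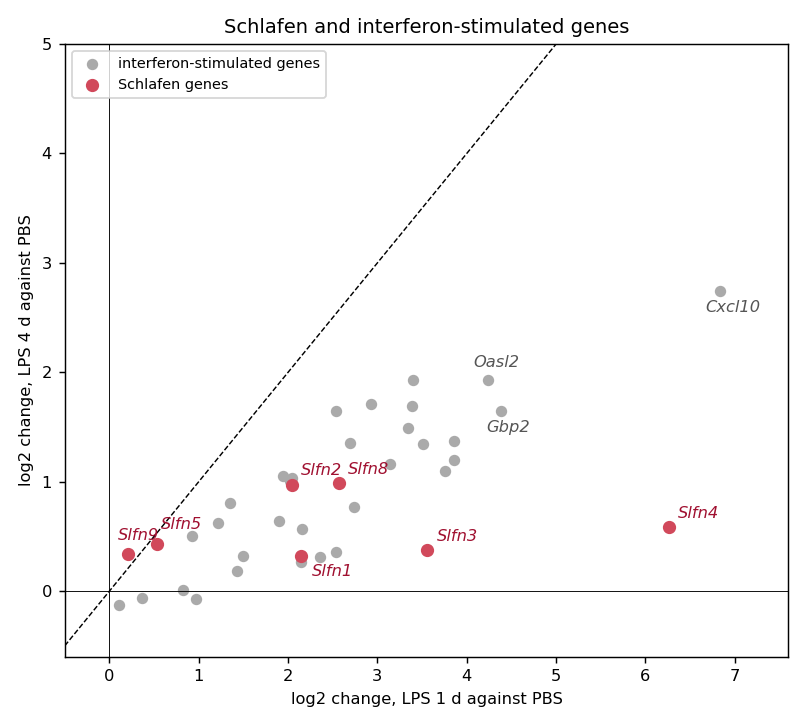
Log2 change of the Schlafen genes and of the interferon-stimulated genes in LPS 1 d against PBS and in LPS 4 d against PBS (both axes in log2 units), each point a gene and the dashed line marking equal change at both times. *Slfn4* lay far along the LPS 1 d axis at 6.26 with an LPS 4 d value of 0.59, whereas *Cxcl10* lay at 6.83 and 2.75.

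Upstream of these genes, none of the 5 interferon ligand genes measured was called by limma in any contrast, with or without moderation, and all 5 were below background in every group, with 0 at an unadjusted p under 0.05 in LPS 4 d against PBS, 1 in LPS 1 d against PBS and 1 in LPS 4 d against LPS 1 d. That level was reached by 3027, 3048 and 2787 of all 17097 genes in these contrasts. The ligand gene was *Ifnb1* both times, with a log2 change of 0.43 in LPS 1 d against PBS (adjusted p = 0.105). Its change in LPS 4 d against LPS 1 d was -0.47 (adjusted p = 0.0924), and every LPS 1 d array was above all others. Among the kinases and transcription factors of the pathway, 14 of 16 were measured, and 6 were higher in LPS 4 d than in PBS, 6 were higher in LPS 1 d than in PBS, while 1 was higher in LPS 4 d than in LPS 1 d, as 1.84% of all genes were, and 5 were lower. The one that was higher, *Irf8*, a transcription factor of myeloid cells, changed by 1.82 in LPS 4 d against PBS (adjusted p = 0.000389) and by 1.12 in LPS 4 d against LPS 1 d (adjusted p = 0.00993). Without moderation, 3 of the 14 were called in LPS 4 d against PBS, 6 in LPS 1 d against PBS and 2 in LPS 4 d against LPS 1 d. *Irf7*, a transcription factor that amplifies interferon production, changed by 3.14 in LPS 1 d against PBS (adjusted p = 0.000298), and its value of 1.16 in LPS 4 d against PBS was not called (adjusted p = 0.0745). *Irf9*, a transcription factor of the interferon response, changed by 0.86 in LPS 4 d against PBS and by 1.96 in LPS 1 d against PBS. Of 7 interferon feedback inhibitors measured, *Socs3*, *Usp18* and *Ptpn6* were higher in LPS 4 d and in LPS 1 d than in PBS. The other 4, *Socs1*, *Pias1*, *Ptpn11* and *Trim24*, were not called in any contrast. *Socs3* and *Usp18*, inhibitors of cytokine and interferon signaling, changed by 2.04 and 1.37 in LPS 4 d against PBS and by 3.91 and 3.86 in LPS 1 d against PBS. *Ptpn6*, a phosphatase of blood cells, changed by 3.19 in LPS 4 d against PBS and by 2.66 in LPS 1 d against PBS, and its difference of 0.52 in LPS 4 d against LPS 1 d was not called (adjusted p = 0.44).

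Some neutrophil markers moved with the Schlafen genes, and the part of neutrophils in these results was not tested. Of 14 neutrophil markers measured out of 16, 1 was higher in LPS 4 d than in PBS, 9 were higher in LPS 1 d than in PBS and 6 were lower in LPS 4 d than in LPS 1 d. Without moderation, 1 was called in LPS 4 d against PBS, 4 in LPS 1 d against PBS and 1 in LPS 4 d against LPS 1 d. The summed linear level of all 14 was 539, 319 and 344 in LPS 4 d, 1695, 4581 and 2611 in LPS 1 d, and 206, 127 and 165 in PBS. Within LPS 1 d this sum had the array order of the Schlafen sum, with replicate 2 highest and replicate 1 lowest. The same order held for the sums of the interferon-stimulated genes (5761, 8207 and 7552 in LPS 1 d), of the other 3 interferon lists and of the glial markers (6415, 6811 and 6770 in LPS 1 d), so it was not particular to neutrophil markers. *S100a8* averaged 7.01 log2 units in LPS 4 d, 10.09 in LPS 1 d and 4.50 in PBS, 3 of the 14 markers were below background in every group, and *Ly6g* had no probe set of its own.

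Monocyte and macrophage markers, 11 of 13 measured, had 8 higher in LPS 4 d than in PBS and 8 higher in LPS 1 d than in PBS, with 3 higher and 3 lower in LPS 4 d than in LPS 1 d. Without moderation, 6, 6 and 5 were called in these 3 contrasts. The sum of all 11 ranged from 2003 to 2942 in LPS 4 d, from 1459 to 1569 in LPS 1 d and from 303 to 342 in PBS. *Ms4a7* changed by 5.40 in LPS 4 d against PBS and by 1.04 in LPS 1 d against PBS, and *Plac8* by 2.07 and 4.44. *Ccr2*, a defining gene of inflammatory monocytes, averaged 3.58 log2 units in LPS 4 d, 3.33 in LPS 1 d and 3.16 in PBS and was not called. Its LPS 1 d and PBS means were below background, so a change of *Ccr2* could be missed. Microglia markers, 10 of 12 measured, summed to 1885 to 2144 in LPS 4 d, 593 to 853 in LPS 1 d and 886 to 927 in PBS, with 5 higher in LPS 4 d than in PBS, 3 lower in LPS 1 d than in PBS, as 0.532% of all genes were, and 8 higher in LPS 4 d than in LPS 1 d. Without moderation, 4, 3 and 4 microglia markers were called in these 3 contrasts. *Slfn1* and *Slfn2* have been studied in T cells, whose markers were low here. Of 12 T cell markers measured out of 14, 10 were below background in every group, *Cd3e* and *Cd3g* among them, and limma called none in any contrast, with or without moderation, with 1 at an unadjusted p under 0.05 in LPS 4 d against PBS, 2 in LPS 1 d against PBS and 0 in LPS 4 d against LPS 1 d. Among all 17097 genes, 3027, 3048 and 2787 were at that level in the same contrasts. The sum of the T cell markers was 1612 to 1686 in LPS 4 d, 1568 to 1758 in LPS 1 d and 1725 to 1922 in PBS, most of it from *Thy1*, which neurons also express.

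For each Schlafen gene that differed across the groups, the genes whose profile was nearest were found by the root mean square difference of log2 values over the 9 arrays, each gene centred on its own mean. *Slfn4* was nearest to the secreted pattern recognition protein *Ptx3* (0.41 log2 units), the matrix protease *Mmp3* (0.59) and the chemokines *Cxcl1* and *Cxcl2* (0.74 each) and *Ccl2* (0.81). *Slfn3* was nearest to the cytokine *Il6* (0.26), the decoy receptor *Il1r2* (0.32) and the granulocyte growth factor *Csf3* (0.33). *Slfn2* was nearest to the viral RNA sensor *Ddx58* (0.09), the transcription factor *Cebpb* (0.11) and the interferon-induced gene *Ifi35* (0.12). *Slfn8* was nearest to *Cyp1b1* and to the MHC class I transactivator *Nlrc5* (0.33 each), *Slfn1* to *Upp1* and *Plin4* (0.25 each), and *Slfn5* to *Dbndd2* (0.07). These are descriptions over 9 arrays of 3 groups, and genes with small changes have small distances.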

How the data were processed

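RNA of ipsilateral brain was amplified, labelled with biotin and hybridised to Affymetrix HT MG-430 PM arrays. The authors ran RMA in Affymetrix Expression Console (version not given in the sources used here) on the scans, and the deposited values are log2 expression per probe set. Background correction and normalization are theirs and were not repeated. RMA pulls values near background together, so changes of dim genes can be understated.

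After 104 control probe sets were left out, 45037 were fitted with limma (version 3.58.1, R 4.3.3) by lmFit and eBayes on the 3 group means, without covariates, with Benjamini-Hochberg adjustment over all of them. Of these, 28898 had 1 symbol, 551 several and 15588 none, and only the first were named. The probe set with the highest mean over the 9 arrays stood for a gene. The fit had 6 residual and 3.02 prior degrees of freedom. A two-sided exact permutation test of 3 against 3 arrays cannot go below 0.1 and was not used for calls. Precision rests on 3 arrays per group, and linear levels are 2 to the power of the log2 value. The steps were tested on simulated data.

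Named genes were all 7 members, the 5 nearest genes in profile of each (some are given), 3 neighbours on each side with a probe set, and up to 4 called genes of each list with the largest change plus defining cell markers. The members, lists and tests were chosen with earlier results of these data known, so p-values here are no independent support. Alternatives were the trend, moderation, groups fitted, probe set choice, filters, fold threshold, replicate block and leaving out each array. Promoters came from RefSeq on GRCm38.p6 (Python 3.11.15). The labels do not say that pools came from separate experiments on different days, and p-values measure the spread between pools.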

Additional observations from a re-analysis of the deposited data

Results flagged for a closer look

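The LPS effect at 4 d and that at 1 d, each taken against the same PBS arrays, differed by the direct limma test for *Slfn1*, *Slfn2*, *Slfn3* and *Slfn4*. The log2 change at 4 d minus that at 1 d was -1.82 for *Slfn1*, -1.07 for *Slfn2*, -3.18 for *Slfn3* and -5.67 for *Slfn4*, and all LPS 4 d arrays were below all LPS 1 d arrays for each of these 4 genes. PBS was collected at 4 d alone, so time since injection and LPS cannot be told apart at 1 d. For *Slfn3* the value holds for 1 of its 2 probe sets.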

How the results depend on the processing

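The count of members called in LPS 1 d against PBS, 5, was 4 to 6 under every alternative run. In LPS 4 d against PBS it was 1, and became 0 without moderation and 2 without PBS replicate 1 (range 1 to 2 over arrays left out). In LPS 4 d against LPS 1 d it was 4, and became 2 without moderation (4 to 5 over arrays left out). Across the groups 6 members differed, 4 without moderation, 4 with the probe set of lowest mean, and 5 to 6 over arrays left out. *Slfn8* in LPS 4 d against LPS 1 d was called with an intensity trend (adjusted p = 0.00961), on the groups compared alone (0.0245), without dim probe sets (0.0465), with 1 probe set per gene adjusted (0.0493) and without PBS replicate 1. It was not called without moderation (adjusted p = 0.215) or with the replicate block (0.15), and its adjusted p reached 0.207 over the arrays left out. With the other probe set of *Slfn3* its log2 change was 0.035 in LPS 4 d against LPS 1 d (adjusted p = 0.956) and 0.02 in LPS 1 d against PBS (0.968). The remaining changes of sign were in values that were not called. Over the arrays left out, *Slfn9* ranged from -0.053 to 0.39 in LPS 4 d against LPS 1 d, turning negative without replicate 3 of LPS 4 d and without replicates 1 or 3 of LPS 1 d, and from -0.051 to 0.34 in LPS 1 d against PBS, turning negative when LPS 1 d replicate 2 was dropped. *Slfn5* ranged from -0.20 to 0.0077 in LPS 4 d against LPS 1 d, turning positive when that same array was dropped. The cause was not tested. Replicate numbers did not pair the arrays, since same-numbered deviations correlated at -0.03 to 0.02 over 9 pairs. With the replicate block, 5 members were called in LPS 1 d against PBS, 1 in LPS 4 d against PBS and 4 in LPS 4 d against LPS 1 d, and 5 differed across the groups, while the interferon-stimulated genes gave 28, 16 and 23 in the same contrasts. In that order, these genes gave 26, 13 and 16 without moderation and 24, 11 and 20 with the probe set of lowest mean. Of all 17097 genes, 560, 511 and 266 were called without moderation. Signal over background limits *Slfn5* and *Slfn9* in all groups, and the filter on dim probe sets removed both.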

Other observations

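The 7 members also differed in how alike their profiles were over the 9 arrays. Among the pairs, *Slfn5* and *Slfn9* were nearest, with a root mean square difference of 0.27 log2 units, followed by *Slfn1* and *Slfn2* at 0.45 and *Slfn2* and *Slfn8* at 0.50. Both *Slfn5* and *Slfn9* were below background in all groups, and genes with small changes have small distances. *Slfn4* and *Slfn9* were farthest apart at 2.81. *Slfnl1*, a Schlafen-like gene outside the run on chromosome 11, averaged 1.84 log2 units in LPS 4 d, 1.81 in LPS 1 d and 1.86 in PBS, below background in all 3 groups.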
